A study of Mus musculus with 12 samples.

Results

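Genes of the contractile apparatus that marks smooth muscle cells were followed in a cell line that the labels describe as microvascular endothelial. The cells were cultured on Matrigel, a basement membrane gel on which endothelial cells form cord-like networks. The genes were chosen by name (Acta2, Tagln, Cnn1, Cnn2, Myl9, Tpm1, Tpm2, Actg2, Vcl and Fhl2), with every probe set that the platform annotation assigns to 1 of these symbols. They are 10 of the 12393 genes that the arrays name, and 17 of their 22690 probe sets. A probe set was bright enough to test if it read 183.1 (the overall median signal) or more on 3 or more arrays, and 16 of the 17 did, at least 1 for each gene. In the comparisons between times, each gene is represented by its brightest probe set.

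Smooth muscle cells shorten when myosin filaments pull on actin filaments. Smooth muscle alpha and gamma actin (Acta2, Actg2) form the thin filaments, the tropomyosins (Tpm1, Tpm2) lie along them, and the calponins (Cnn1, Cnn2) and transgelin (Tagln) bind them. The regulatory light chain Myl9 switches myosin on when it is phosphorylated, vinculin (Vcl) ties actin bundles to adhesion sites, and the LIM-domain protein Fhl2 sits at those sites and acts as a cofactor in the nucleus. Many of these genes are known targets of serum response factor (SRF), which binds a short element called the CArG box together with cofactors, the myocardin-related factors, that are held back by free actin monomers. Endothelial cells that take on mesenchymal features are known to raise several of them.

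The cells were of the mouse line MB114, described by the labels as microvascular endothelial. They had been split 24 h before they were plated on the gel and were harvested after 1, 5, 15 or 25 h, with 3 samples per time that the labels call biological replicates 1 to 3. All 12 samples had therefore been on Matrigel, and culture off the gel was not analysed here, so each comparison is with the first hour on the gel. No treatment or genetic change is given, and the labels do not say what an equal number shares between times.

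Each sample was 1 Affymetrix array of RNA from the whole culture, and the values are MAS5 signals, a linear brightness scaled to the same trimmed mean on each array. The number of arrays limits the precision, and the files give no detection calls. Other genes of smooth muscle differed widely in signal. Of 12 smooth muscle and pericyte markers, 3 passed the filter (Smtn, Cspg4 and Pdgfrb, with mean signals of 1113, 922.1 and 1333). The heavy chain Myh11 had a mean signal of 21.3, Lmod1 of 9.43 and the SRF cofactor Myocd of 30.9, all below the 25th percentile of all signals (44.9), and desmin (Des), with a mean of 138.2, did not reach the filter either. Of 26 further genes of the contractile apparatus measured, 16 passed it, among them Cald1 with a mean of 5065. Without detection calls, a low signal does not show that a gene was absent. Of 14 endothelial markers, 3 passed the filter (Cd34, Cdh5 and Flt1), and Pecam1 had a mean signal of 17.9. Of 11 fibroblast markers, 9 passed it, with means of 19440 for Col1a2, 15290 for Vim and 15150 for Col1a1, while Lum and Fap did not. The endothelial identity of the cells is thus taken from the labels and was not tested. "Smooth muscle contractile genes" therefore names the genes here, not the cells.

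The stretches before the annotated starts of these genes are shown because the CArG box is the element the group is best known for. RefSeq promoter sequences of the mouse build GRCm38.p6 were at hand for 9 starts of 8 of the genes, and a CArG box (a pair of C, a core of A or T bases, a pair of G, which reads as the same kind of element on both strands) was searched in the 300 bases from 250 before to 50 after each start. It was found at 5 starts of 4 genes, Cnn2, Myl9, Vcl and both starts of Fhl2, whereas 535 of 32851 promoters of that length held one (1.63%). With 1 core base allowed to be G or C, a second box appeared in Myl9 and a pair in Acta2, which made 6 starts of 5 genes, against 9.98% of all promoters. A match is a description of the letters and says nothing on whether a factor was bound. The 250 bases before the start of Acta2 (chr19:34255374-34255623, minus strand), with the pair of variant boxes in capitals, and windows of 50 bases around the boxes of the other genes, with the box in capitals, were:
Acta2: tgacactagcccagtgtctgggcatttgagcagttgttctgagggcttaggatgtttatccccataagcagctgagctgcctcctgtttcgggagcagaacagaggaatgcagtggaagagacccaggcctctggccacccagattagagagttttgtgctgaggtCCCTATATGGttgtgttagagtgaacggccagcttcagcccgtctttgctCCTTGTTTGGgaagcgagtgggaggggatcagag
Myl9, chr2:156775283-156775332, plus strand: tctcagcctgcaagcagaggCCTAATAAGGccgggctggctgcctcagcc
Myl9 variant box, chr2:156775345-156775394, plus strand: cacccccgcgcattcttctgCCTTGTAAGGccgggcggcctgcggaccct
Cnn2, chr10:79988524-79988573, plus strand: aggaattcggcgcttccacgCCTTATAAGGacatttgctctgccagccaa
Vcl, chr14:20929151-20929200, plus strand: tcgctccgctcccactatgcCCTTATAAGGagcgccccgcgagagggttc
Fhl2 first start, chr1:43196828-43196877, minus strand: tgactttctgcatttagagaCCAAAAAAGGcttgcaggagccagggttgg
Fhl2 second start, chr1:43163963-43164012, minus strand: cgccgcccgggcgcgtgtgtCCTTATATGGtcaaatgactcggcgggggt

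The boxes of Cnn2 and Vcl were the same 10 letters but lay 56 and 227 bases before their starts. The exact box of Myl9 began 161 bases before the start and the variant 99 before it. Those of Acta2 began at 84 and 34 bases, and those of Fhl2 at 96 and 31 bases before the respective start. No such letters were in the windows of Cnn1, Tpm1 and Tpm2. The MCAT element CATTCC, read by TEA-domain factors and searched on both strands after the signals had been seen, lay in the windows of Acta2, Tpm1 and Vcl at 146, 56 and 143 bases before the start, each time on the opposite strand, and in 14.7% of all promoters.

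**Figure D1:**
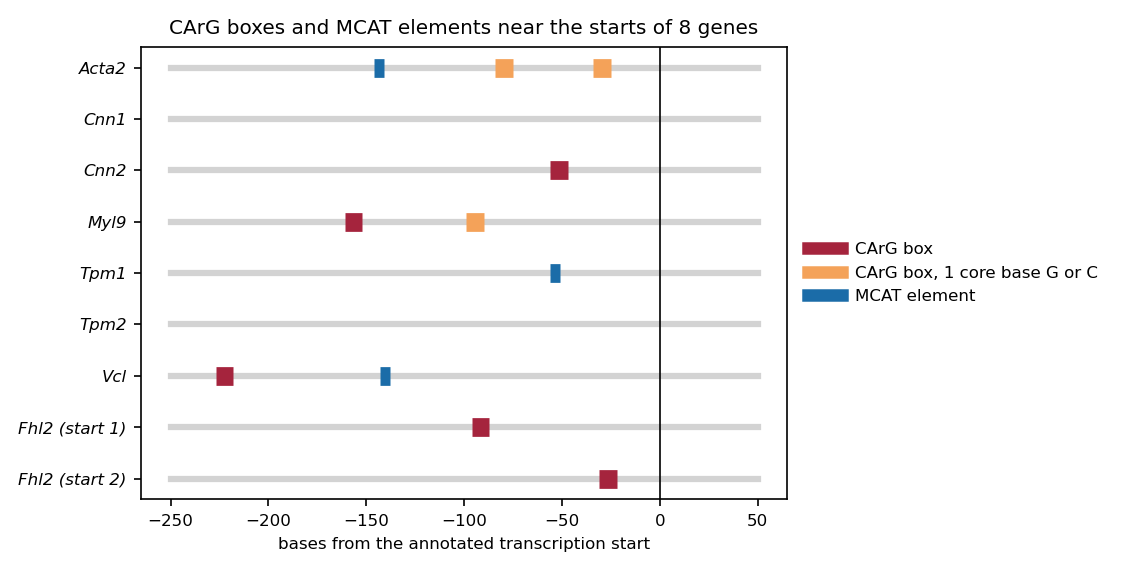
Position of CArG boxes (red), CArG boxes with 1 core base G or C (orange) and MCAT elements (blue) in bases from the annotated transcription start, for 9 starts of 8 genes. Exact CArG boxes lie at 5 starts, between 227 and 31 bases before the start, and no box of either kind lies in the windows of Cnn1, Tpm1 and Tpm2.

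Against 1 h, all 10 genes had a lower mean log2 signal at 5, at 15 and at 25 h. None passed the test in the upward direction, where 0.881%, 15.4% and 21.6% of all genes tested did. A gene was called changed at an adjusted p under 0.05 in limma over the 7379 genes that passed the filter. At 5 h the call was reached by 1 of the 10, Fhl2, where 0.772% of all genes were called lower. At 15 h it was reached by 7 (Acta2, Tagln, Cnn1, Myl9, Tpm1, Vcl and Fhl2), where 8.44% of all genes were, and at 25 h by 5 (Acta2, Tagln, Tpm1, Vcl and Fhl2), where 15.1% were. The median change of the 10 was -0.61, -1.27 and -1.16 on the log2 scale at 5, 15 and 25 h, beside 0.04, 0.115 and 0.13 over all genes. The 3 comparisons share the 1 h samples and are not independent of each other. In RNA from whole cultures, fewer cells that express a gene and less of its RNA per cell cannot be told apart.

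Samples of different times that carry the same replicate number deviated in the same direction from their time means, so the number was also entered as a block. With the block, 5 of the 10 were lower at 5 h (3.28% of all genes), 9 at 15 h (15.1%) and 8 at 25 h (21% of all genes), with none higher beside 4.49%, 25.1% and 30.2% of all genes. The counts at 15 and 25 h include Actg2, which passed the brightness filter only through samples of 1 and 5 h, so its lower call is partly set by the filter. Between later times, 3 of the 10 were lower at 15 than at 5 h (5.75% of all genes), namely Acta2, Tagln and Cnn1, and 2 at 25 than at 5 h (14.6%), Acta2 and Tagln. None was higher in these 2 comparisons (8.73% and 17.5% of all genes). With the block these counts were 5 lower and 1 higher, Fhl2 (13.4% and 19.4% of all genes), and 5 lower and 1 higher, Cnn2 (21.3% and 26.3%). Both counts of 5 lower include Actg2, whose lower call is here too partly set by the filter. Between 15 and 25 h none of the 10 passed limma's test without the block, where 0.745% of all genes were called lower and 0.0271% higher. With the block Cnn1 and Myl9 were higher at 25 h (1.19% of all genes) and none was lower (3.06%).

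Read without a test, the samples of the later time lay wholly below those of the earlier one for 3 of the 10 genes at 5 h (7.2% of all genes), 8 at 15 h (15.2%) and 6 at 25 h (19.8%) against 1 h. For 15 against 5 h this held for 4 (14.5%) and for 25 against 5 h for 3 (20.3%). Cnn1 alone lay wholly above at 25 against 15 h, as 6.03% of all genes did.

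The count rested on how the replicate number was treated when samples were left out. Without the 4 samples numbered 1, 1 gene was still called at 15 h against 1 h without the block (Tpm1) and 9 with it. Without the 4 samples numbered 3 these counts were 4 and 7. The 5 genes called at 5 h with the block rested on few samples, and the 573 calls over all genes fell as well. The 5 became 1 without the samples numbered 1 (152 of all genes) and 1 without those numbered 3 (397). They became 2 when 1 h number 1, 1 h number 3 or 5 h number 1 was left out (320, 326 and 390 of all genes). Over 17 alternatives with the block at 5 h, the adjusted p reached 0.168 for Acta2, 0.0951 for Cnn2, 0.295 for Myl9 and 0.269 for Tpm1.

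**Figure D2:**
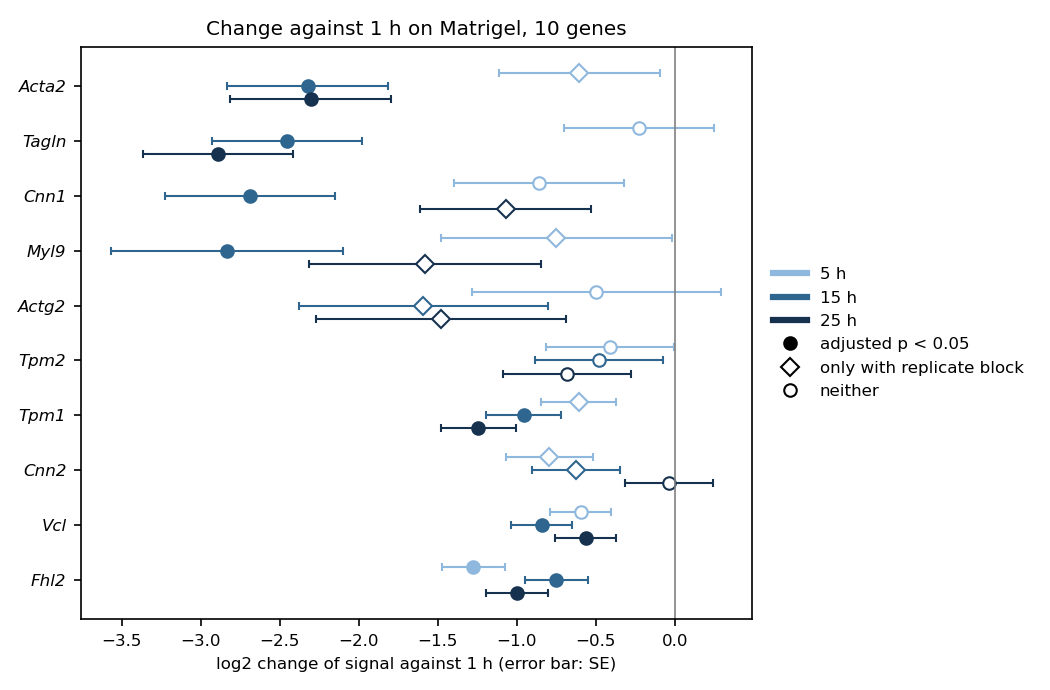
Log2 change of signal at 5, 15 and 25 h against 1 h for the 10 genes, with the standard error of the fit without the block; filled points passed limma's test at an adjusted p under 0.05, diamonds passed it only with the replicate number as a block. Cnn1, Myl9 and Tagln have the points farthest to the left, at -2.69, -2.83 and -2.89, and none of the 30 points lies above 0.

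Among the actins, Acta2 fell about 5-fold by 15 h and stayed there. Its signal was 7303, 4416 and 12846 in the samples numbered 1, 2 and 3 at 1 h, and 3952, 3409 and 8764 at 5 h. It was 1209, 983 and 2779 at 15 h, and 1122, 1102 and 2791 at 25 h. All 6 samples of 15 and 25 h lay below all 6 of 1 and 5 h, and within each time the sample numbered 3 was the highest. The fall from 1 to 15 h was 5.01-fold (log2 -2.32 ± 0.51 (SE), n = 3 per time, adjusted p = 0.00662), and from 1 to 25 h 4.93-fold (log2 -2.30, adjusted p = 0.00368). Folds are ratios of geometric means, taken from the log2 fit.

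The equally numbered samples gave nearly the same change of Acta2 in spite of their different levels: -2.60, -2.17 and -2.21 on the log2 scale from 1 to 15 h in pairs 1, 2 and 3. Acta2 was also lower at 15 than at 5 h (log2 -1.72, 3.29-fold, adjusted p = 0.0404) and at 25 than at 5 h (log2 -1.70, adjusted p = 0.0228). The first of these calls was lost when any of 6 samples was left out (1 h number 1, all of 5 h, 15 h numbers 1 and 2, with adjusted p up to 0.133). The second was lost without 5 h number 3 or 25 h number 1 or 2 (adjusted p up to 0.0913). From 1 to 5 h the difference of -0.60 passed only with the block (adjusted p = 0.67 without it and 0.0166 with it), and the means at 15 and 25 h, 1657 ± 978 and 1671 ± 970 (SD, n = 3), differed by less than their spread.

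The gut-type gamma actin Actg2 had low signals throughout. They were 224.1, 87.4 and 599.6 at 1 h, 76.4, 134.8 and 405.7 at 5 h, 51.0, 52.8 and 159.5 at 15 h, and 75.3, 41.6 and 172.9 at 25 h. It reached the filter on 3 arrays only, 2 of 1 h and 1 of 5 h, so it was tested through the samples in which it was high, and 1 value lay under the 25th percentile of all signals. The samples of each pair of times overlapped. The change was -1.59 ± 0.79 at 15 h and -1.48 ± 0.79 at 25 h against 1 h, with adjusted p = 0.163 and 0.162, and 0.00449 and 0.00485 with the block, and the sample was lower than its equally numbered 1 h sample in 3 of 3 pairs at both times. Against 5 h, the changes of -1.09 at 15 h and -0.98 at 25 h likewise passed only with the block (adjusted p = 0.0386 and 0.0439), and in 11 and 9 of 17 alternatives with it.

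The Acta2 values come from a probe set whose name ends in s_at, the platform's mark for probes that match more than 1 transcript, so closely related actins cannot be fully told apart in it. The other Acta2 probe set read between 3.9 and 71.3 on all 12 arrays, never reached the filter and was not tested. The contractile actins of skeletal and heart muscle, Acta1 and Actc1, had mean signals of 42.6 and 68.2 and did not pass the filter.

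Transgelin, the actin-binding protein SM22 alpha that is a common early marker of smooth muscle, had the deepest fall at 25 h of the 10. Tagln read 1832, 2215.0 and 4610 at 1 h, 2324, 1329 and 3771 at 5 h, 475, 292 and 820 at 15 h, and 239, 339 and 563 at 25 h. No sample of 15 or 25 h reached the lowest of 1 or 5 h, and number 3 was again the highest at each time. It fell 5.48-fold from 1 to 15 h (log2 -2.45 ± 0.47 (SE), n = 3 per time, adjusted p = 0.00362) and 7.43-fold from 1 to 25 h (log2 -2.89, adjusted p = 0.000584), in 3 of 3 pairs each. Against 5 h it was 4.68-fold lower at 15 h (log2 -2.23, adjusted p = 0.01) and 6.34-fold lower at 25 h (log2 -2.67, adjusted p = 0.00127).

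Tagln was not shown to move in the first 5 h: sample 1 was higher and samples 2 and 3 lower than at 1 h, and the mean difference of -0.23 ± 0.47 had an adjusted p of 0.896 (0.576 with the block). Whether Tagln and Acta2 differ in that interval was not tested. From 15 to 25 h Tagln changed by -0.44 (adjusted p = 0.921).

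Calponin 1, the calponin form of differentiated smooth muscle, was lowest at 15 h. Cnn1 read 1240.1, 878 and 3556 at 1 h, 739, 461 and 1909 at 5 h, 189, 201 and 382 at 15 h, and 619.5, 693 and 972 at 25 h. Each 15 h sample was below every sample of the other times. The fall from 1 to 15 h was 6.44-fold (log2 -2.69 ± 0.54 (SE), n = 3 per time, adjusted p = 0.00447), and 4.28-fold without the 1 h sample numbered 3. From 5 to 15 h it was 3.55-fold (log2 -1.83, adjusted p = 0.0394), a call lost when any of 6 samples was left out (5 h numbers 1 and 3, 15 h and 25 h numbers 1 and 2, adjusted p up to 0.131).

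From 15 to 25 h Cnn1 was 3.07-fold higher in the mean, with differences of 1.71, 1.79 and 1.35 on the log2 scale in the 3 pairs and no overlap between the samples of the 2 times. This difference of 1.62 ± 0.54 had an adjusted p of 0.29, 0.00261 with the block, and 0.0244 without the block once the samples numbered 3 were left out. At 25 h Cnn1 stood 2.10-fold below 1 h (log2 -1.07, adjusted p = 0.139, and 0.00305 with the block), and the 5 h value was not shown to differ from 1 h with either fit (log2 -0.86, adjusted p = 0.526 and 0.0542).

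Calponin 2, the form found widely outside muscle, dipped in the means at 5 and 15 h and was back at 25 h near its 1 h signal. Cnn2 read 4586, 3483 and 4480.3 at 1 h, 3567, 1595 and 2414 at 5 h, 3479.5, 2725 and 2064 at 15 h, and 4954, 3426 and 3915.0 at 25 h. The samples of 5 h overlapped those of 1 h, and those of 15 h lay just below them, with 3479.5 against 3483 as the nearest values. In the fit of all 12 samples Cnn2 was called in no comparison without the block. With it, Cnn2 was lower at 5 h (log2 -0.79, adjusted p = 0.212 without and 0.0169 with the block) and at 15 h (log2 -0.62, adjusted p = 0.123 and 0.0136) than at 1 h, and higher at 25 than at 5 h (log2 0.76, adjusted p = 0.0535 and 0.00353). The last of these also passed in 3 of 23 alternatives without the block: quantile normalization (adjusted p = 0.0298), and leaving out 5 h number 1 (0.0131) or 15 h number 3 (0.0464). At 25 h its mean, 4098 ± 781 (SD, n = 3), differed from that of 1 h, 4183 ± 609, by less than the spread.

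**Figure D3:**
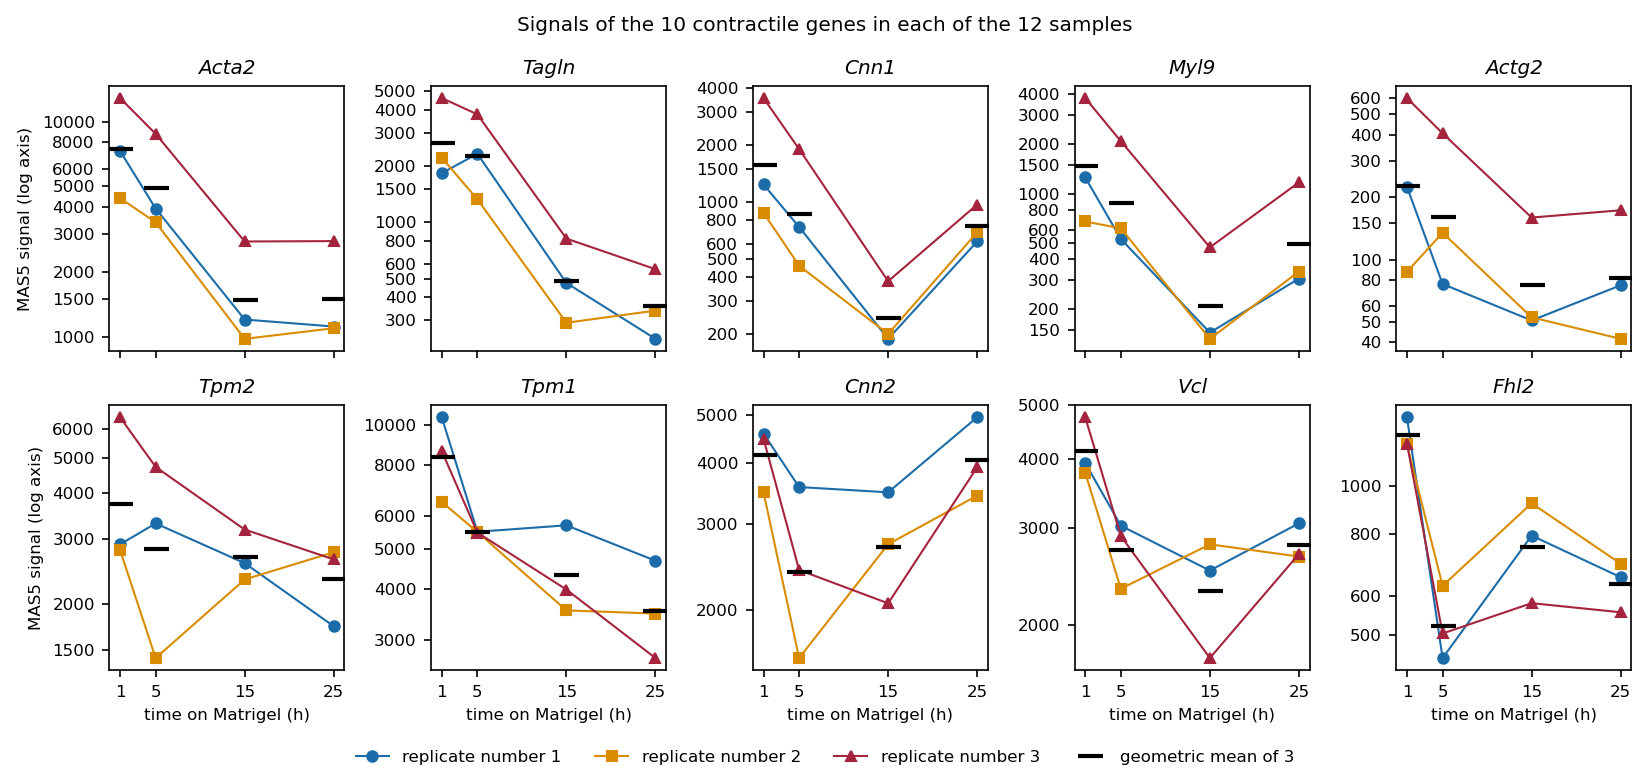
MAS5 signal on a log axis against hours on Matrigel for each of the 10 genes, 1 line per replicate number and a black dash for the geometric mean of the 3 samples. In Acta2, Tagln, Cnn1, Myl9 and Actg2 the line of number 3 is the uppermost at all 4 times. All 3 lines of Cnn1, Myl9 and Cnn2 rise from 15 to 25 h.

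Myl9, the regulatory light chain of smooth muscle and non-muscle myosin II, had the largest mean fall at 15 h of the 10 and a wide spread. It read 1256, 679 and 3805 at 1 h, 531.5, 617 and 2082 at 5 h, 144, 132 and 473 at 15 h, and 306, 338 and 1172 at 25 h. All 15 h samples lay below those of 1 and 5 h, while the samples of 25 h overlapped those of every other time. The fall from 1 to 15 h was 7.13-fold (log2 -2.83 ± 0.73 (SE), n = 3 per time, adjusted p = 0.0149, and 2.1e-06 with the block).

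Single samples carried weight in this value. The fall of Myl9 was 4.44-fold without the 1 h sample numbered 3 (adjusted p = 0.0554) and 10.7-fold without the 15 h sample numbered 3, and the call was also lost without 15 h number 1 or 2 (adjusted p = 0.0528 and 0.0553). From 15 to 25 h Myl9 differed by 1.09, 1.36 and 1.31 on the log2 scale in pairs 1, 2 and 3. Its mean of 1.25 ± 0.73 passed only with the block (adjusted p = 0.731 without and 0.00237 with it). The remaining deficits of Myl9, -1.58 at 25 h against 1 h, -0.83 at 25 h against 5 h and -2.08 at 15 h against 5 h, did not pass in the fit of all samples without the block (adjusted p = 0.109, 0.41 and 0.0748) and passed with it (2.15e-05, 0.00306 and 2.06e-05), as did the -0.75 at 5 h against 1 h (0.727 and 0.0311). Of 23 alternatives without the block, 2 called the first of these (without 25 h number 3, adjusted p = 0.0412, or without all samples numbered 3, 0.00411). The change from 5 to 15 h was called in 3, without 1 h number 3 (0.0491), without all samples numbered 3 (0.00533) and in a fit of these 2 times alone (0.0496).

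Myl9 and Cnn1 thus had the same order of means, 1 h, 5 h, 25 h and 15 h from high to low. For Acta2 and Actg2 the order was 1 h, 5 h and then 15 and 25 h at values closer to each other than their spread, and for Tagln, Tpm1 and Tpm2 the means followed the clock downward. Vcl ran 1 h, 25 h, 5 h, 15 h, Cnn2 1 h, 25 h, 15 h, 5 h, and Fhl2 1 h, 15 h, 25 h, 5 h. For these 3 genes no neighbouring pair after 1 h passed the test in either fit.

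Of the tropomyosins, Tpm1 fell by about a factor of 2, and the probe set that stands for Tpm2 was not called. The brightest Tpm1 probe set read 10458, 6510.1 and 8652 at 1 h, 5507, 5499.7 and 5482 at 5 h, 5711, 3547 and 3986 at 15 h, and 4684, 3485 and 2717 at 25 h. The 3 samples of 5 h were nearly equal, 5496 ± 12.7 (SD, n = 3), and they and all later ones lay below the lowest 1 h sample. The fall was 1.94-fold at 15 h (log2 -0.96 ± 0.24 (SE), n = 3 per time, adjusted p = 0.012) and 2.37-fold at 25 h (log2 -1.24, adjusted p = 0.00148) against 1 h, in 3 of 3 pairs. The call at 15 h was lost without the 1 h sample numbered 1 (adjusted p = 0.0554). At 5 h the -0.61 passed only with the block (adjusted p = 0.27 and 0.0339). The -0.64 at 25 against 5 h had an adjusted p of 0.0569 without and 0.00513 with the block, and passed in 6 of 23 alternatives without it. These were median centring (0.0156), quantile normalization (0.0405), and leaving out all samples numbered 1 (0.031), 1 h number 2 (0.0488), 15 h number 1 (0.044) or 25 h number 1 (0.0268).

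The second Tpm1 probe set gave a 1.86-fold fall at 15 h (adjusted p = 0.0038 over the 12614 probe sets above the filter) and a 1.90-fold fall at 25 h (0.00133). From 5 to 15 h its change of -0.50 passed with the block only (0.0725 without and 0.0131 with it). The third, with a mean signal of 430.4, did not follow: 292.5, 298 and 580.0 at 1 h, 649.5, 494 and 423 at 5 h, 616, 335 and 413 at 15 h, and 443, 404 and 217 at 25 h. Its samples overlapped between all times and its changes against 1 h, 0.47, 0.25 and -0.13, did not pass. Averaged over all 3 probe sets, the change of Tpm1 at 15 h was -0.53 (adjusted p = 0.0957). Tpm1 is known for many splice forms, and which of them each probe set reads is not given in the files.

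Tpm2, the beta tropomyosin, read 2909.9, 2808 and 6446 at 1 h, 3317, 1429 and 4723 at 5 h, 2587.5, 2336 and 3192 at 15 h, and 1743, 2769.8 and 2649 at 25 h. The samples of 25 h lay just below those of 1 h, the other times overlapped. Its changes against 1 h, -0.41, -0.48 and -0.68 with a standard error of 0.41, did not pass with or without the block (adjusted p = 0.209 and 0.0587 at 25 h). None of its 4 probe sets was called in any comparison without the block. With it, 1 of the dimmer ones was lower at 25 h than at 1 h (log2 -0.48, adjusted p = 0.404 without and 0.0395 with the block, over probe sets).

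Vinculin was lower at 15 and 25 h. Vcl read 3933, 3775 and 4759 at 1 h, 3027, 2328 and 2899.7 at 5 h, 2511, 2801 and 1744 at 15 h, and 3058, 2662 and 2691 at 25 h. Every sample after 1 h lay below the lowest of 1 h, and the samples of the later times overlapped each other. The fall was 1.79-fold at 15 h (log2 -0.84 ± 0.19 (SE), n = 3 per time, adjusted p = 0.00827) and 1.48-fold at 25 h (log2 -0.56, adjusted p = 0.0362), in 3 of 3 pairs. At 5 h the -0.60 did not pass (adjusted p = 0.166, and 0.0543 with the block).

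The call for Vcl at 25 h was lost without any 1 of 5 samples, 1 h numbers 1 and 3 and all of 25 h (adjusted p up to 0.12), and under quantile normalization (0.0531) or with no brightness filter (0.0536). The dimmer Vcl probe set read 1078, 937 and 1281 at 1 h, 329, 449 and 760.0 at 5 h, 751, 651 and 273 at 15 h, and 718, 519 and 319.5 at 25 h, again with every later sample below all of 1 h, and it passed at 25 h (log2 -1.15, adjusted p = 0.0468 over probe sets) and not at 5 or 15 h (0.244 and 0.0791).

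Fhl2 was the only one of the 10 called within the first 5 h without the block. It read 1373, 1210.2 and 1215 at 1 h, 449.9, 629 and 504 at 5 h, 793, 922 and 580.1 at 15 h, and 654, 697 and 556 at 25 h. The 3 samples of 1 h stood apart from all others, and at no time was number 3 the highest. The fall was 2.42-fold at 5 h (log2 -1.27 ± 0.20 (SE), n = 3 per time, adjusted p = 0.0073), 1.68-fold at 15 h (log2 -0.75, adjusted p = 0.0162) and 2.00-fold at 25 h (log2 -0.998, adjusted p = 0.0019), each in 3 of 3 pairs.

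Between 5 and 15 h Fhl2 was higher in 3 of 3 pairs, by 0.52 ± 0.20 in the mean, which passed with the block and not without it (adjusted p = 0.0256 and 0.0918), and in 12 of 17 alternatives with the block. The call at 15 h against 1 h was lost without 1 h number 1 or 15 h number 3 (adjusted p = 0.0608 and 0.074).

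**Figure D4:**
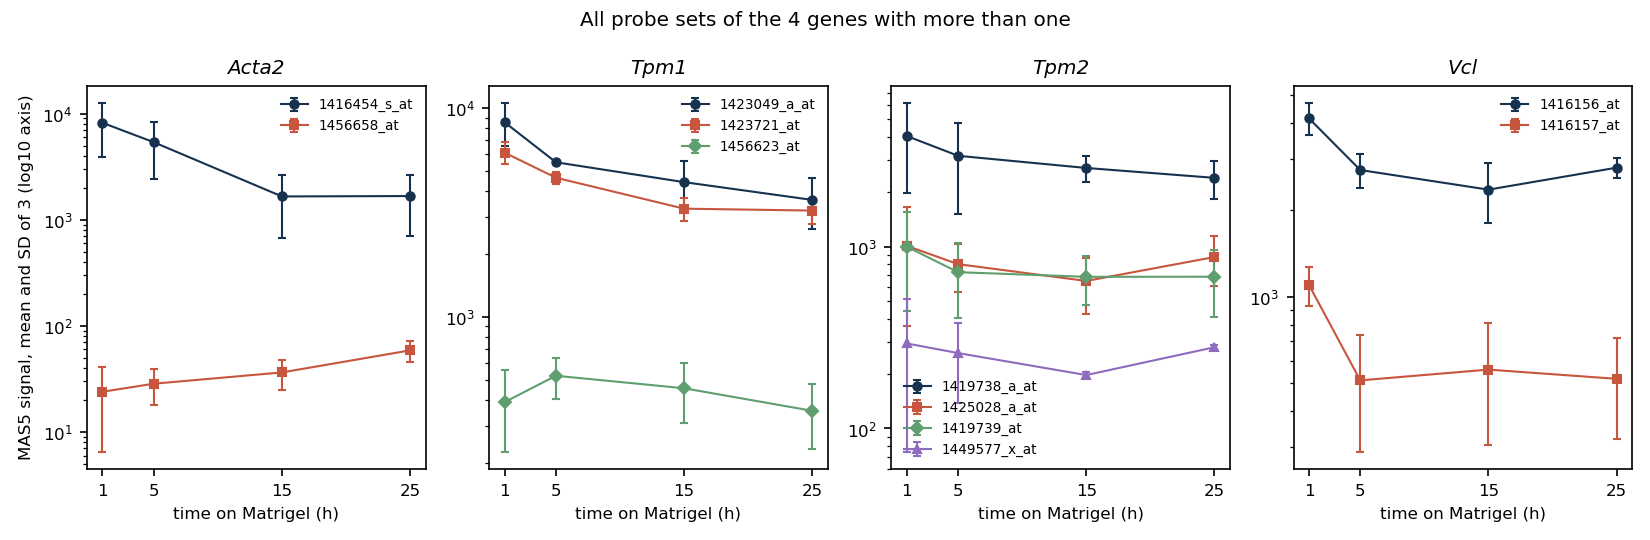
Mean MAS5 signal with the SD of 3 samples, on a log axis, against hours on Matrigel, for each probe set of Acta2, Tpm1, Tpm2 and Vcl. The upper pair of Tpm1 lines falls together while the third, with a mean of 430.4, shows no such order, and the second Acta2 probe set stays between 3.9 and 71.3 on every array.

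Of the 16 probe sets above the filter, 8 differed over the 4 times in limma's F test, beside 29.4% of all 12614. They were those of Acta2, Tagln, Cnn1, Myl9 and Fhl2, 2 of Tpm1 and the brighter one of Vcl. Without the 4 samples numbered 1 this count was 3, and 9 with the block. By gene, 7 of the 10 differed over the 4 times (34.9% of all genes) and 9 with the block (55.1%), Tpm2 in neither. The 9 include Actg2, which was tested through the samples in which it was high.

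The level of several of these genes depended on the replicate number as well as on time. Acta2, Tagln, Cnn1, Myl9 and Actg2 were highest in the sample numbered 3 at 4 of 4 times, which held for 9.8% of all genes, and Tpm2 at 3 of 4. Over the 4 times, sample 3 exceeded the mean of samples 1 and 2 by 2.42-fold for Acta2, 2.15-fold for Tagln, 2.39-fold for Cnn1, 3.70-fold for Myl9, 3.57-fold for Actg2 and 1.66-fold for Tpm2. For Cnn2, Tpm1, Vcl and Fhl2 it stood at 0.92, 0.89, 0.96 and 0.84 of that mean. An F test of the replicate number, chosen after the signals had been seen, called 8 of the 10 (28.3% of all genes), with adjusted p from 8.84e-06 for Myl9 and 1.02e-05 for Acta2 to 0.0439 for Tpm2, and not Vcl (0.725) or Fhl2 (0.19). Cnn2 and Tpm1 were among the 8 although their samples numbered 3 stood near the mean of the others. Without the 4 samples numbered 3 the count was 2 (10.8% of all genes), and without those numbered 1 it was 5 (12.5%).

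The offset of the samples numbered 3 kept its size over time in some genes and not in others. For Acta2 it was 1.18, 1.26, 1.35 and 1.33 on the log2 scale at 1, 5, 15 and 25 h, and for Myl9 2.04, 1.86, 1.78 and 1.87, a narrow range beside the fall of both genes. For Cnn1 it was 1.77 and 1.71 at 1 and 5 h but 0.97 and 0.57 at 15 and 25 h, and for Tpm2 1.17 and 1.12, then 0.38 and 0.27. The change of the offset with time was not tested. In SD units on the log2 scale, the replicate means of Myl9 varied by 1.09 and its time means by 1.21, those of Tpm2 by 0.43 and 0.29, and those of Fhl2 by 0.16 and 0.55.

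**Figure D5:**
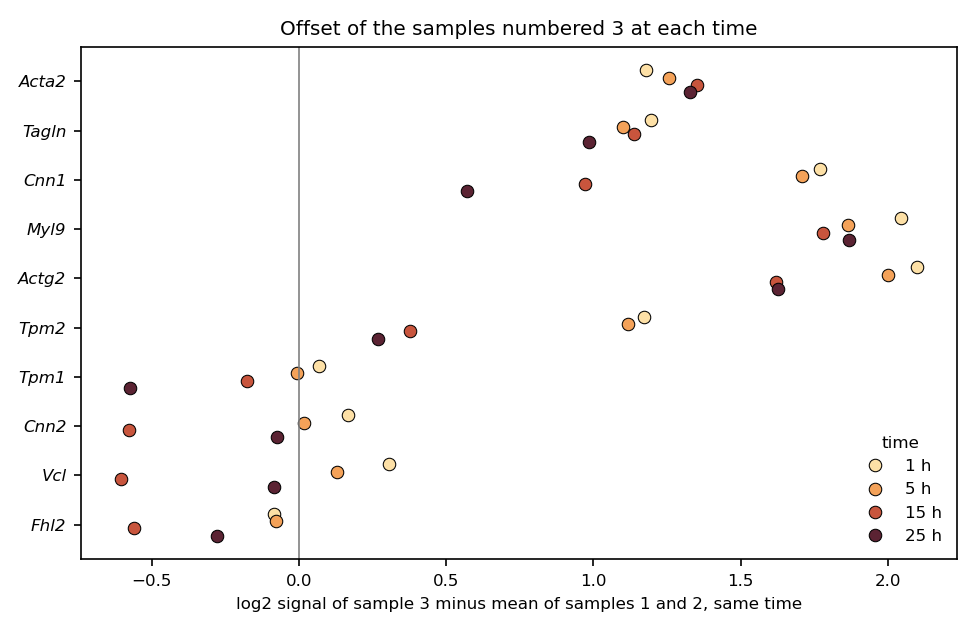
Log2 signal of the sample numbered 3 minus the mean of samples 1 and 2 of the same time, 1 point per time, for the 10 genes. The points of Acta2, Tagln, Myl9 and Actg2 lie close together and above 0, those of Cnn1 and Tpm2 lie nearer to 0 at 15 and 25 h, and those of Cnn2, Tpm1, Vcl and Fhl2 lie between -0.61 and 0.30.

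Other measures that moved with the replicate number are given beside this. Of 9 tested fibroblast markers, 7 differed by replicate number (28.3% of all genes), 2 higher and 5 lower in number 3: Dcn was 3.05-fold and Pdgfra 1.99-fold higher, Col1a1 1.46-fold lower. Of 3 tested endothelial markers, Cdh5 was 3.24-fold and Cd34 1.55-fold lower. The summed signal of 12 smooth muscle and pericyte markers was 2844 to 3690 in the samples numbered 3, 3217 to 5089 in those numbered 1 and 3628 to 5331 in those numbered 2, with Myh11 and Lmod1 near the floor throughout. Of the 3 tested among them, 1 differed by replicate number (28.3% of all genes), Cspg4, which was 1.92-fold lower in number 3. Smtn, 1.25-fold lower, and Pdgfrb, 1.03-fold higher, were not called. Signals of the hybridisation spike-ins were 604 to 786 in the samples numbered 1 and 248 to 364 in the others. The part of these in the results was not tested.

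Correlations of log2 signals describe the same split. Among Acta2, Tagln, Cnn1, Myl9, Tpm2 and Actg2, a grouping made after their values were seen, the 15 pairwise Pearson r over the 12 samples ran from 0.631 to 0.953, and from 0.555 to 0.984 once each time's mean was removed. Between these 6 and the other 4, the 24 values ran from -0.0711 to 0.676, and from -0.766 to 0.295 without the time means. Acta2 and Myl9 had r = 0.984 without the time means, Acta2 and Fhl2 -0.634. All points share arrays, scaling and replicate numbers, so these are descriptions.

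The tested genes whose log2 signals followed each of the 10 most closely over the 12 samples had r between 0.845 and 0.982. For Acta2 they were Rai14 (r = 0.982), Timp3 (0.961) and Hnrnpdl (0.952), and for Tagln Rbm12 (0.964), Senp2 (0.959) and Grk6 (0.954). For Myl9 they were Tollip (0.936), Dusp6 (0.933) and again Rai14 (0.925), and for Actg2 Erdr1 (0.96), Dusp6 (0.95) and Samhd1 (0.943). Cnn1 was nearest to Rragc (0.904), Slc15a4 and Lamc1, Cnn2 to Gramd4 (0.926), Phf23 and Fermt2, and Tpm2 to Ccl7 (0.911), Larp1b and Hs3st1. Tpm1 was nearest to Foxm1 (0.931), Parp1 and Wdr43, Vcl to Tiparp (0.902), Egr3 and Tuft1, and Fhl2 to Plekha1 (0.916), Fosb and Pkp2.

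Other genes of the contractile apparatus changed in both directions. Of 26 further genes measured, 16 passed the filter, and against 1 h 2 were higher and 3 lower at 15 h, and 2 higher and 3 lower at 25 h. Of all genes, 15.4% were higher and 8.44% lower at 15 h, and 21.6% and 15.1% at 25 h. With the block 3 of the 16 were higher and 6 lower at each of these times. The shares of all genes were then 25.1% and 15.1% at 15 h, and 30.2% and 21% at 25 h. Whether the counts of this and the following lists differ from such shares was not tested. Smoothelin (Smtn), a protein of contractile smooth muscle, fell from 2084 to 567 between the 1 and 25 h means (log2 -1.87, adjusted p = 0.000175). The non-muscle regulatory light chain Myl12b rose from 1790.2 to 4197 (log2 1.25, adjusted p = 0.000193) and the essential light chain Myl6 from 310.5 to 702 (log2 1.16, adjusted p = 0.000816). Tagln2, the widely expressed relative of transgelin, was lower at 25 h (log2 -1.03, adjusted p = 0.00317). The median change of the 16 was -0.29 at 15 h and -0.24 at 25 h.

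Focal adhesion and stress fibre genes, which act beside vinculin, were mostly not called. Of 20 tested, 2 were lower at 15 h (8.44% of all genes) and 3 at 25 h (15.1%). With the block 1 was higher and 6 lower at 15 h (25.1% and 15.1% of all genes). At 25 h 2 were then higher and 8 lower (30.2% and 21%). The fibronectin receptor subunit Itga5 fell (log2 -1.26 at 15 h, adjusted p = 0.00868, and -1.59 at 25 h, 0.00118), and so did the muscle filamin Flnc (log2 -1.68, adjusted p = 0.00861, and -1.88, 0.00242). Zyxin (Zyx) differed over the 4 times (F test adjusted p = 0.043), with -0.69 at 15 h (adjusted p = 0.056, and 0.000911 with the block).

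Srf, which encodes the serum response factor itself, was lower too. Its mean signal went from 889.6 at 1 h to 541 at 5 h, 449 at 15 h and 462 at 25 h, a log2 change of -0.99 at 15 h (adjusted p = 0.00827) and -0.96 at 25 h (adjusted p = 0.00527). Of 10 tested genes for SRF and its partners, 3 were lower at 15 h (8.44% of all genes), and at 25 h 3 were lower and 1 higher (15.1% and 21.6%). With the block 4 were lower at 15 h (15.1% of all genes), and at 25 h 4 were lower and 1 higher (21% and 30.2%). Srf itself was then also lower at 5 h (log2 -0.77, adjusted p = 0.124 without and 0.0368 with the block). Without the block, the other lower ones were Klf4 (log2 -2.36 at 25 h, adjusted p = 0.00177) and Klf5 (log2 -1.68, adjusted p = 0.000836), zinc-finger factors that act on smooth muscle genes, and the higher one was Elk1, a partner of SRF at growth factor-responsive genes (log2 0.66, adjusted p = 0.0496). The mean signal of Elk1 was 140.2 at 1 h, 147.4 at 5 h and 220.3 at 25 h. It passed the filter through later samples, so its higher call is partly set by the filter. The cofactor Mrtfa had -0.33 at 15 h and -0.51 at 25 h (adjusted p = 0.291 and 0.0781). The second of these passed with the block (0.0279). Mrtfb and Myocd did not pass the filter.

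Markers of other cell types over the same hours were as follows. Of 9 tested fibroblast markers, 2 were higher than at 1 h at 15 h (15.4% of all genes) and 4 at 25 h (21.6%), among them Dcn and Col3a1. With the block 4 were higher and 1 lower at 15 h (25.1% and 15.1% of all genes), and 5 higher and 1 lower at 25 h (30.2% and 21%). The summed signal of all 11 measured went from 58920 to 79400 at 1 h to 74980 to 110600 at 25 h. The smooth muscle and pericyte markers summed to 3690 to 5089 at 1 h and 2844 to 3628 at 25 h, with 3 of 12 tested. Of these 3, Smtn went from a mean of 2084 at 1 h to 567 at 25 h, Cspg4 from 592 to 429 and Pdgfrb from 1043 to 1422. The markers thus did not fall together. Smtn was called lower at 15 and 25 h, and Pdgfrb higher at 15 h (log2 0.72, adjusted p = 0.037). Cspg4 was called higher at 5 and 15 h with the block only (adjusted p = 0.000778 and 0.0112). Among the 3 tested endothelial markers the VEGF receptor Flt1 was higher than at 1 h at each later time, 4.17-fold at 5 h (adjusted p = 0.00536), 1.80-fold at 15 h (0.0497) and 2.01-fold at 25 h (0.0162). The mean signal of Flt1 at 1 h was 131.9 ± 47.8 (SD, n = 3), so it passed the filter mainly through later samples. Its higher calls are thus partly set by the filter. Cdh5 and Cd34 were not called against 1 h in either fit, and the 14 endothelial markers measured summed to 1067 to 1615 at 1 h and 1336 to 2117 at 25 h. Of 10 skeletal and heart muscle markers 1 passed the filter, the cardiac troponin T gene Tnnt2. Its mean signal was 75.1 ± 65.3 (SD, n = 3) at 1 h and 127.3 ± 103.6 at 25 h, with 722 ± 465 and 725 ± 428 at the times between. It was 10.3-fold higher at 15 h than at 1 h (adjusted p = 0.0118), and at 5 h the call was made with the block only (adjusted p = 0.0659 and 0.00061). At 25 h Tnnt2 was 6.61-fold below 5 h (adjusted p = 0.0245). Its samples of 1 h lay below the filter, so Tnnt2 was tested through later samples in which it was high. Its calls are thus partly set by the filter, and the folds against 1 h rest on a dim signal. Of 5 leukocyte and 5 epithelial markers none passed the filter. The part of these markers in the fall of the contractile genes was not tested.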

How the data were processed

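RNA from 12 cultures, 3 at each of 4 times, was hybridised to Affymetrix arrays. The authors deposited 1 linear intensity per probe set; the submitters' processing notes name MAS5, with no version or settings. The 2% trimmed mean lay between 500.1 and 500.2 on each array and the median between 153.6 and 209.2. Probe sets were named through the platform annotation, which can be old (1 symbol for 20379, several for 691, none for 1555), and 64 control probe sets were left out.

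Intensities were log2-transformed, filtered at 183.1 on 3 arrays, and the brightest probe set stood for its gene (7379 genes). limma 3.58.1 in R 4.3.3 fitted 1 mean per time to all 12 arrays (8 residual degrees of freedom, 6 with the replicate number as a block). eBayes used an intensity trend, tests were 2-sided, and Benjamini-Hochberg adjustment ran over all genes tested. In 18 pairs of equally numbered samples of different times, deviations from the time means correlated at r = 0.33 to 0.76, and in 36 other pairs at -0.59 to 0.20. The numbers thus pair the samples, and the blocked value is given where it changes a call. No label says what replicates share, so p-values without the block measure the spread between these samples. Those with the block measure the spread left once the mean difference between replicate numbers is removed. On simulated data for 15 h against 1 h the fit without the block called 99 of 100 genes changed by log2 3, 85 of 100 changed by 1.5 and 8 of 7179 unchanged ones. The simulated noise was independent between arrays and held no replicate effect, so these counts need not hold for the real samples.

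The 10 genes and the 10 lists were chosen with earlier results of these data known. The results of 1 list are not reported here. Named are the 10 genes, the 3 genes most correlated with each, and up to 4 genes per list by F-test p, plus others where a count or statement needed them. Promoter sequences are from RefSeq (GRCm38.p6), searched in Python 3.11.15. Protein sequences were not used here.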

Additional observations from a re-analysis of the deposited data

How the results depend on the processing

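The 36 comparisons of single genes followed here were those called in the fit of all samples with the block. They were thus chosen for a clear direction in these same data. Through 23 alternatives without the replicate block and 17 with it, 0 of them changed direction, which that choice favours. Of the 18 called without the block, 4 kept their call in every alternative without it: Tagln at 25 h against 1 h and 5 h, and Tpm1 and Fhl2 at 25 h against 1 h. The block moved the number of the 10 genes called to 5 at 5 h against 1 h, 8 at 25 h against 1 h, 6 at 15 against 5 h, 2 at 25 against 15 h and 6 at 25 against 5 h. Calls over all 7379 genes, in either direction, were 573, 3778, 2415, 314 and 3514 in these comparisons. Median centring with the block gave 5, 9, 6, 2 and 6 for these comparisons, and quantile normalization with the block 5, 8, 6, 2 and 6. Of all genes, the first called 476, 3535, 2332, 272 and 3364 and the second 479, 3706, 2281, 349 and 3418. Quantile normalization alone gave 4 at 25 against 5 h (2265 of all genes), and no brightness filter 1 at 15 against 5 h (898 of 12393). Without the 4 samples numbered 1 the counts were 0 at 5 h, 1 at 15 h and 3 at 25 h against 1 h, 0 at 15 against 5 h and 2 over the 4 times, with 3 probe sets called, which leaves 8 arrays in the fit. Of all genes, 3, 470, 1559 and 3 were then called in these comparisons between times, beside 122, 1756, 2705 and 1068 with all samples. With the block as well, the counts of the 10 were 1 at 5 h against 1 h, 5 at 15 against 5 h, 1 at 25 against 15 h and 6 at 25 against 5 h. Those of all genes were 152, 1339, 60 and 2494. Without the samples numbered 3 the counts of the 10 were 4 at 15 h against 1 h and 1 at 25 against 15 h (1148 and 42 of all genes). With the block they were 1 at 5 h against 1 h, 5 at 15 against 5 h, 2 at 25 against 15 h and 4 at 25 against 5 h. Those of all genes were 397, 1622, 244 and 2936. Genes of the 10 differing by replicate number were 5 without number 1 (12.5% of all genes) and 2 without number 3 (10.8%).

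Leaving out 1 sample at a time, with or without the block, gave 1 to 6 called genes at 5 h against 1 h (1 each time without the block, 2 to 6 with it), 5 to 9 at 15 h and 4 to 9 at 25 h against 1 h, 1 to 6 at 15 against 5 h, 0 to 3 at 25 against 15 h, 1 to 6 at 25 against 5 h, and 5 to 10 over the 4 times. Over all genes, the same fits called 34 to 632 at 5 h, 1054 to 3074 at 15 h and 2112 to 3877 at 25 h against 1 h. They called 470 to 2520 at 15 against 5 h, 13 to 356 at 25 against 15 h and 1817 to 3516 at 25 against 5 h. Median centring turned the median change of all genes at 15 h against 1 h from 0.115 to -0.06 and made the falls deeper by that shift. Fits without the samples numbered 3, single samples left out with the block, the scalings with the block and the test by replicate number, with its own alternatives, were chosen after seeing the data. The cause of these shifts was not tested. Dim signals limit Actg2, which the stricter filter removed.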
